A study of Homo sapiens with 8 samples.

Results

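The positions described here are the single bases listed within the first 100 nt of an annotated transcript in a map of N1-methyladenosine (m1A) from neuroblastoma cells. A position was kept when its smallest coordinate over all transcripts that contain it was 100 or less. Positions on the mitochondrial chromosome (2) and positions annotated to transcripts of both strands (79) were left out. The rule gave 690 start positions in 574 genes, out of 9962 listed positions in 4945 genes, which is 6.93% of the positions. Of these, 462 genes had 1 start position, 99 had 2 and 13 had 3. For 424 of the 690 (61.4%) every transcript that contains the base places it within 100 nt, while the other 266 lie further in on at least 1 other transcript. The limit itself fell within a continuous run of positions: 23 had a smallest coordinate of 96 to 100, and 32 lay just outside, at 101 to 105.

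The libraries came from polyadenylated RNA of neuroblastoma cells that received either a control or siRNA to TRMT6, with 2 libraries per condition. The labels name the cells SK-N-AS in one field and SK-N-BE in another, and they give neither the kind of control nor the time after transfection. An antibody to m1A had pulled down the RNA fragments. The columns of the deposited table carry the condition and a number, so they were read as the m1A libraries control 1, control 2, siTRMT6 1 and siTRMT6 2. Nothing says whether libraries came from separate cultures, so p-values over libraries reflect the spread among these 4, which may be purely technical. The 4 input samples are not analysed here, so a change in m1A cannot be told apart from a change in the amount of RNA. TRMT6 had no listed position, and its level was not measured here.

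m1A is an adenosine with a methyl group on the edge that pairs with uridine, so it halts or misleads reverse transcriptase. TRMT6 and TRMT61A form the enzyme that places it in the T-loop of transfer RNA and in T-loop-like stems of some mRNAs, where TRMT61A is the catalytic subunit. Maps of m1A on mRNA have often shown signal in the 5' UTR, close to the cap and the start codon, and how many of those sites are true m1A has been debated. The 5' UTR is the stretch scanned by the small ribosomal subunit before translation begins.

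The bases themselves were read first, because m1A can sit only on an adenosine. Promoter sequences from RefSeq (GRCh38.p14, the same assembly as the submitters' hg38), which run from 250 bases before to 50 bases after a gene's start, covered 272 of the 690 start positions. The deposited sites count from 0 and are given here counting from 1. Read in this way, 272 of 272 were A on the forward strand of the genome. On plus-strand transcripts this is an A in the RNA (41 of 41 positions). On minus-strand transcripts the same base is a T in the sense of the transcript (231 of 231 positions), that is, a U in the RNA. None of those 231 was an A in transcript sense, which allows a share of up to 1.30%. In all, 15.1% of the start positions read (Wilson 95% interval 11.3 to 19.8) were an A on their own transcript. This equals the share of plus-strand positions among those read. Minus-strand transcripts held 231 of the 272 positions read but 441 of all 690, so the share does not carry over to all start positions.

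The following stretches show this for positions with many reads or with neighbours in several libraries. Each is written 5' to 3' in the sense of the gene it is listed for, and capitals mark listed start positions. The first 3 are plus-strand genes and the others minus-strand genes.
SPHK2 (chr19:48624968-48624988, plus): cgaaaggaggAggcagaatcc
ANAPC11 (chr17:81891719-81891739, plus): gcgcgtgcgcActggcgtgcg
TBKBP1 (chr17:47695255-47695275, plus): accaggcccgAgagaagtaca
ZNF513 (chr2:27380709-27380729, minus): gctccatgaaTggaagcggcg
HNRNPU (chr1:244864514-244864534, minus): gcgtgctcgcTcgcgccaggc
SRSF1 (chr17:58007313-58007333, minus): gcgtgcgtgtTgggatcgaat
FBXW4, siTRMT6 position (chr10:101695207-101695227, minus): tgcccagggcTcggcccgcgc
FBXW4, control position (chr10:101695189-101695209, minus): cgccgccccaTgtgacccggt
ACAP3, control 2 position (chr1:1307973-1307993, minus): cggctgacttTggcgacgctc
ACAP3, control 1 position (chr1:1307993-1308013, minus): cagcgggcggTgcgcgcgggc
GTPBP6, 2 of its 3 positions (chrX:318774-318794, minus): acgcgccatgTgggcccTgcg
SCAMP3, all 3 positions (chr1:155262335-155262355, minus): cgtcttagcTTTtggacaaga
In SCAMP3, which encodes a membrane protein of the endosomal recycling pathway, 3 libraries were listed at 3 adjoining bases of 1 run of T. In GTPBP6, a GTP-binding protein gene, the listed base at transcript position 4, annotated as coding, is the T directly after an atg.

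The base on one side of the site also followed the forward strand. On plus-strand transcripts the base before the site was an A at 3 of 41 positions (7.32%), against 23.0% of all A in the 50 bases after RefSeq starts. On minus-strand transcripts the base after the site was a T at 16 of 230 positions (6.96%), against 24.3% of all T in those stretches. Both are the base to the left of the site on the forward strand, and both are low. To the right, forward A was also lower on both strands, but by less. A after plus-strand sites was at 17.1% (Wilson interval 8.53 to 31.3) against 23.1%. T before minus-strand sites was found at 46 of 230 (15.3 to 25.6, in percent) against 24.0%. Both intervals include the background. Forward T on the right was at 22.0% against 16.2% for plus-strand sites, with an interval of 12.0 to 36.7 that includes the background. For minus-strand sites it was at 7.83% against 16.3%. The letters GTTCNANNC, a T-loop-like motif of the TRMT6 and TRMT61A enzyme, were searched on both strands in the 21-nt windows around 256 start positions. They were found in 2 windows in transcript sense and 0 in the other, and in neither did the A of the motif coincide with the listed site. For a sense match on a minus-strand transcript this was fixed beforehand, because the listed base there is a T in transcript sense. Of all 35116 RefSeq promoters, 0.188% held the motif in the first 21 bases after the start in transcript sense and 0.154% in the other sense.

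Start positions fell more often on minus-strand transcripts than the rest of the table, mainly through those in 5' UTR. Of the 690, 441 were on minus-strand transcripts (63.9%, Wilson interval 60.3 to 67.4), against 2057 of the 8974 other positions on 1 strand outside the mitochondrion (22.9%, 22.1 to 23.8). For comparison, 49.3% of RefSeq promoters are on the minus strand. The share was 66.7% in control 1, 66.8% in control 2, 58.9% in siTRMT6 1 and 68.5% in siTRMT6 2, while other positions had 20.4%, 22.1%, 22.6% and 28.2% in the same libraries. Start positions were therefore higher in 4 of 4 libraries, by a mean of 41.9 ± 4.51 percentage points (SD, n = 4 libraries). With a limit of 200 nt the mean difference was 18.8 points, again higher in 4 of 4 libraries. The exact sign-flip permutation test over the 4 libraries gave p = 0.125, two-sided, the smallest that 4 libraries allow. This comparison was chosen after its values were seen, and the part in it of how the sites were assigned to strands was not tested. The share did not separate the conditions, with a siTRMT6 minus control difference of -3.04 percentage points (exact permutation p = 1, 2 against 2 libraries).

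**Figure D1:**
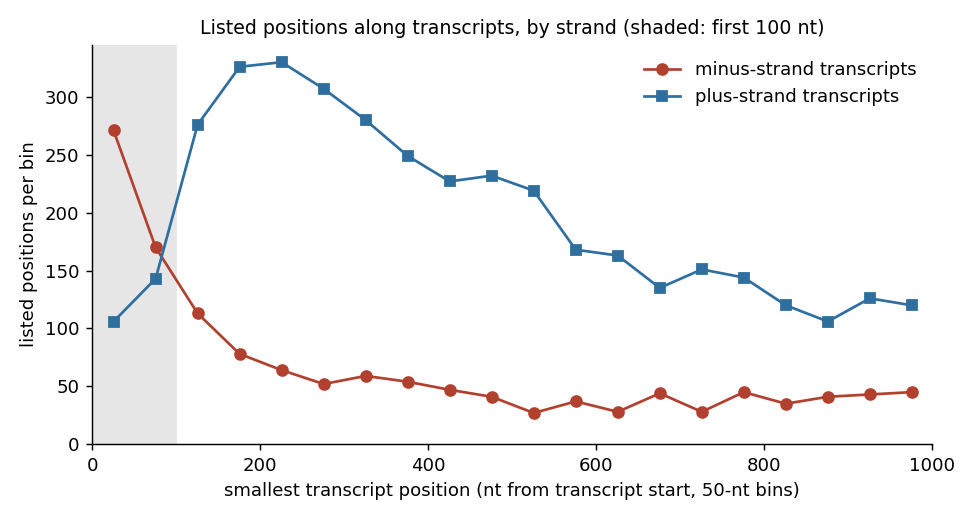
Number of listed positions (vertical axis) in each 50-nt bin of the smallest transcript position (horizontal axis, nt from the transcript start), for minus-strand (circles) and plus-strand (squares) transcripts. The shaded first 100 nt hold the start positions: minus-strand transcripts have 271 and 170 positions in the first 2 bins and plus-strand transcripts 106 and 143, and the order is turned from the third bin on, with 113 against 276.

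Across the first 200 nt, listed positions became sparser on minus-strand transcripts and denser on plus-strand transcripts, though not at every step. Both densities fell from bases 1 to 25 to bases 26 to 50. Both rose from bases 51 to 75, with 3.32 per nt on minus-strand and 2.44 on plus-strand transcripts, to bases 76 to 100. Minus-strand transcripts held 6.24 listed positions per nt of coordinate in bases 1 to 25, 4.60 in bases 26 to 50 and 3.48 in bases 76 to 100, and 1.16 in bases 201 to 300. Plus-strand transcripts held 2.32 in bases 1 to 25, 1.92 in bases 26 to 50, 3.28 in bases 76 to 100 and 6.37 in bases 201 to 300. The minus-strand share fell from 72.9% in the first 25 nt to 15.4% at 201 to 300 nt. Further in, both densities fell, to 1.67 on plus-strand and 0.493 on minus-strand transcripts at 1001 to 2000 nt, and the minus-strand share was 22.8% there. Within the start positions, the median coordinate was 37 on minus-strand and 61 on plus-strand transcripts. The strand difference was also present within 1 kind of region: in 5' UTR, 76.3% of start positions (361 of 473) were on minus-strand transcripts, against 46.3% (322 of 696) of the 5' UTR positions beyond 100 nt. In coding sequence 47 of 151 start positions (31.1%) were on minus-strand transcripts, against 17.2% of the other coding positions, and in non-coding RNA 33 of 66 (50%), against 29.3%. In the 5' UTR of the 4 libraries the difference was 22.8 to 44.7 percentage points (exact sign-flip permutation p = 0.125, two-sided). Read numbers differed little, with a median of 8 reads per position on minus-strand and 7 on plus-strand transcripts.

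**Figure D2:**
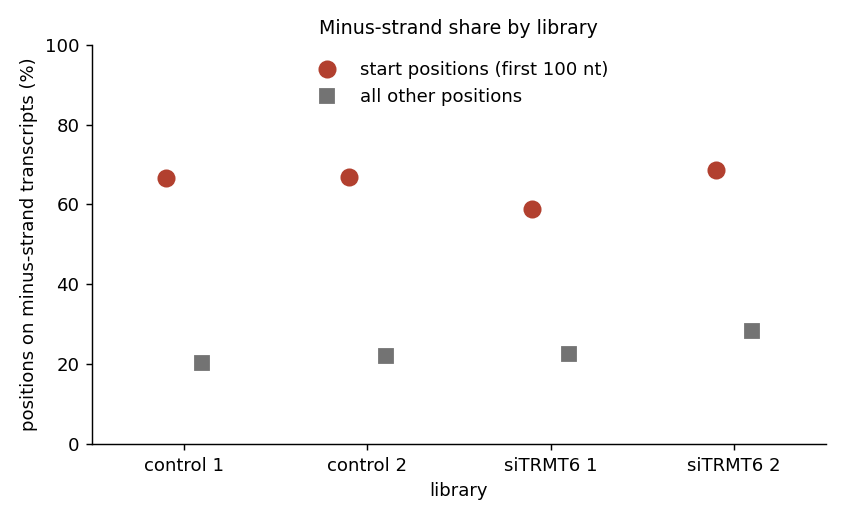
Share of listed positions on minus-strand transcripts (vertical axis, percent) in each of the 4 libraries (horizontal axis), for start positions (circles) and all other positions (squares). In each library the start positions lie between 58.9% and 68.5% and the others between 20.4% and 28.2%.

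The distance to the RefSeq start of the gene also differed by strand. The distance was taken along the genome, introns included, from 1 start per gene. RefSeq gave a start on the same chromosome and strand for 525 of the 690 positions. On minus-strand transcripts 217 of 338 (64.2%, Wilson interval 59.0 to 69.1) lay within 100 nt of it, and on plus-strand transcripts 26 of 187 (13.9%, 9.67 to 19.6). The median offset was 31 nt downstream on the minus strand and 390 nt downstream on the plus strand. Many plus-strand start positions thus lay more than 100 nt along the genome from the RefSeq start, though near the start of an annotated transcript. GAPDH, a glycolytic enzyme, shows this with its coding position of 23 reads in siTRMT6 2. The position is base 79 of 1 transcript and base 871 of another, and lies 1495 nt along the genome from the RefSeq start. Where all transcripts agreed on 100 nt or less, 359 of 424 positions (84.7%) were on minus-strand transcripts, against 82 of 266 (30.8%) where they did not.

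By annotation, 473 of the start positions (68.6%, Wilson interval 65.0 to 71.9) were in 5' UTR, 151 (21.9%) in coding sequence and 66 (9.57%) in non-coding RNA. Among the other positions 7.76% were in 5' UTR, 66.5% in coding sequence and 22.3% in 3' UTR. The limit on the coordinate favours the 5' UTR, so this contrast partly restates the rule. The 5' UTR share of start positions was 65.2% and 67.2% in control 1 and 2, and 70.6% and 67.6% in siTRMT6 1 and 2. The siTRMT6 values were both above the control values, by 2.89 percentage points in the mean (exact permutation p = 0.333, two-sided, the smallest that 2 against 2 allow). Among positions with 10 or more reads the difference was -3.48 points, of the other sign, and with a limit of 50 nt it was 6.85 points. At the very first bases, 88 positions lay within 10 nt of a transcript start and 8 at base 1. At base 1, NME1, a nucleoside diphosphate kinase gene named after its values were seen, had the most reads. It had 11 in siTRMT6 1 and none in the other libraries at that base (chromosome 17, 51153665). A nearby start position at 51153660, listed for NME2, was also named after its values were seen. In the authors' deposited table it was called lower in siTRMT6, with a log2 fold change of -4.51. SMG1, with 5 reads in each control library and 0 in siTRMT6, has the same value there. The value is for the single base and leaves out the 11 siTRMT6 1 reads at the nearby NME1 base.

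Reads at start positions were few. The median was 8 reads per position over all libraries (9 at the other positions), the range was 5 to 49, and 30 positions had 20 or more. Control 1 had reads at 69 start positions, control 2 at 265, siTRMT6 1 at 265 and siTRMT6 2 at 108. Start positions took 6.77% and 5.12% of the listed reads in control 1 and 2, and 6.18% and 6.86% in siTRMT6 1 and 2. The libraries of the conditions overlapped: the mean was 5.95% ± 1.16 in control and 6.52% ± 0.484 in siTRMT6 (SD, n = 2 each, exact permutation p = 0.667, two-sided). Without control 2 the difference changed from 0.574 to -0.250 percentage points. Of the listed positions, 8.42% and 6.21% were start positions in control 1 and 2, and 7.35% and 7.64% in siTRMT6 1 and 2 (exact permutation p = 1). This difference of 0.176 points turned to -0.933 without control 2, and it was 1.28 without control 1, 0.322 without siTRMT6 1 and 0.0306 without siTRMT6 2. The libraries held 8655, 46007, 40771 and 13812 reads at listed positions. These totals are sums over a selected list, so the sequencing depth is unknown.

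**Figure D3:**
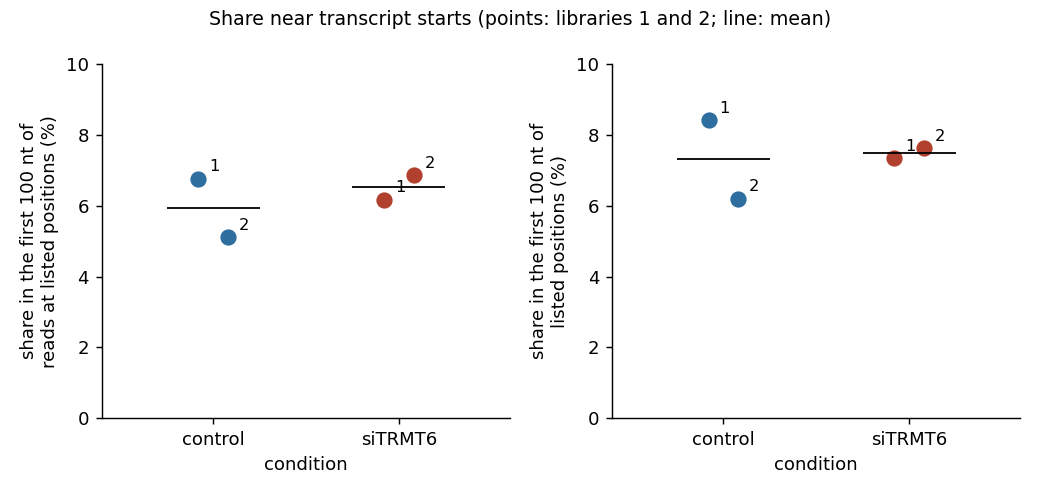
Share of the listed reads (left) and of the listed positions (right) that lie in the first 100 nt, in percent, for the 2 control and the 2 siTRMT6 libraries (points, numbered) with the mean of each condition (line). The siTRMT6 points fall between the 2 control points except for the reads of siTRMT6 2, which at 6.86% lie just above control 1 at 6.77%.

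The start position with the most reads was in the 5' UTR of PHOX2A, a homeodomain factor of noradrenergic neurons. At base 79 (chromosome 11, 72244098, minus strand), siTRMT6 1 had 49 reads and the other libraries none. Control 2 had 50 reads 25 nt further in, just beyond the 100-nt limit, so the pair of conditions differed in the listed base and hardly in number. GATA3, another noradrenergic transcription factor, of the zinc finger class, was listed on chromosome 10 at 8054807 with 23 control 2 reads and at 8054809 with 25 siTRMT6 1 reads, which are bases 2 and 4 of a 5' UTR. The siTRMT6 2 library had 12 reads at 8054788. The 3 libraries thus lay within 22 nt, and control 1 had no reads there. The 1 GATA3 start taken from RefSeq lies 9474 nt upstream of 8054807 along the genome, while these bases lie near the start of other annotated transcripts. HAND1, a basic helix-loop-helix factor, had 21 reads in siTRMT6 1 at base 93 of its 5' UTR (chromosome 5, 154478172) and none in the other libraries at that base, while siTRMT6 2 had 11 reads 11 nt further in, beyond the limit.

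Control libraries led at other genes. ZNF513, a zinc finger gene, had 37 reads in control 2 at base 7 of its 5' UTR (chromosome 2, 27380719) and none in the other libraries. EMILIN1, an extracellular matrix glycoprotein gene, had 34 in control 1 at 27078990 of chromosome 2, and the joined stretch of 122 nt held 34, 0, 40 and 23 reads in control 1, control 2, siTRMT6 1 and siTRMT6 2. TPI1, a glycolytic enzyme gene, had 32 in control 2 at base 95 of 1 transcript and base 507 of another. IGF2, the fetal growth factor gene, was listed in its 5' UTR on chromosome 11 with 30 control 2 reads at 2139383 and 19 siTRMT6 2 reads at 2139366. RPS2, a small ribosomal subunit protein gene, had 34 control 2 reads at 1964748 and 23 siTRMT6 2 reads at 1964736 on chromosome 16, also in the 5' UTR. The positions lay 17 nt apart in IGF2 and 12 nt apart in RPS2, with the other 2 libraries at 0. As RPS2 and GAPDH have near-identical pseudogenes, reads could have been split between copies.

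At the level of the single base, start positions were seldom shared. Reads were confined to 1 library at 673 of 690 (97.5%), and 17 (2.46%) had reads in 2 libraries, against 1.41% of all listed positions. None had reads in both conditions, where the whole table had 14 such positions. All but 1 of the 9962 listed positions had an adjusted p below 0.05 in the authors' deposited table, so a base read alike in both conditions would hardly be listed. Of the 17, 8 were shared by the control libraries and 9 by the siTRMT6 libraries. In the controls, DGCR14, a spliceosome-associated protein gene, had 7 and 9 reads at base 93 of its transcript. SMG1, the kinase of nonsense-mediated decay, had 5 and 5 at base 2 of its 5' UTR, and PCGF6, a Polycomb subunit gene, also had 5 and 5. FGFR1, a growth factor receptor gene, had 3 and 5 reads at base 3 of a 5' UTR, and KIF2A, a microtubule-depolymerising kinesin gene, had 4 and 5. COQ5, a methyltransferase of coenzyme Q synthesis, had 4 and 4 reads in its 5' UTR, as had C2CD5, and the ribosomal protein pseudogene RPL7P9 had 5 and 6.

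In the siTRMT6 libraries, FBXW4, an F-box and WD-repeat protein gene, led with 15 and 8 reads at base 43 of its 5' UTR. PCM1, a scaffold gene of the centriolar satellites, had 8 and 7 at a coding base, SPIRE1, an actin nucleator gene, 6 and 4, and TWF2, an actin-binding protein gene, 5 and 4. LRP1, an endocytic receptor gene, had 4 and 5, BLOC1S6 and UBAC1 each had 5 and 3, NOL9, a ribosome biogenesis kinase gene, had 5 and 2, and the non-coding RP11-529H20.3 had 4 and 3. Summed over the shared positions, control 1 held 37 reads and control 2 held 43, a ratio of 0.860, whereas their totals over all listed positions stood at 0.188. The siTRMT6 sums were 57 and 39, a ratio of 1.46 against 2.95 for the totals. Shared positions are those listed with reads in both libraries, and reads per position were alike in all libraries, so even sums follow from the choice.

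The deposited table called every start position. In the authors' deposited table all 690 had an adjusted p below 0.05, with 364 higher and 326 lower in siTRMT6, and the size of the log2 fold change ran from 3.40 to 6.43. Over all listed positions 49.6% were called higher and 50.4% lower. These values set summed reads of the conditions against each other, although 673 of the 690 sums come from 1 library.

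Tested over libraries, few single bases could be compared. With edgeR's quasi-likelihood test (TMM scaling, low counts filtered out), 34 of all listed positions were tested and 22 called at an adjusted p of 0.05 (64.7%). FBXW4 (chromosome 10, 101695217, minus strand) was the 1 start position among them. It had 0, 0, 15 and 8 reads in control 1, control 2, siTRMT6 1 and siTRMT6 2, with a log2 fold change of 6.85 (SE 1.11, edgeR adjusted p = 0.0391). The base passed the filter on low counts through its siTRMT6 reads alone, so the call follows in part from the filter and is given as a description. Against a floor of 3 counts over the control group, it was at least 7.68-fold higher, provided that a 0 in the table stands for no reads, which no source says. Control 2 had 15 reads 18 nt away, at base 61 of the same 5' UTR. Joined with that neighbour, FBXW4 held 0, 15, 15 and 8 reads, and the log2 fold change was 0.96 (SE 2.43, edgeR unadjusted p = 0.721). The call for the single base was lost without the filter on low counts (edgeR adjusted p = 0.519), with DESeq2 (0.305) and with the replicate number as a block (0.780). The log2 fold change was 6.70 without control 1 and 7.03 without siTRMT6 2, and 6.25 to 7.03 over all settings. With 0 reads in both controls, any setting gives a large positive value, so this range does not show stability. The base was not among the positions tested without control 2 or without siTRMT6 1.

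Start positions of different libraries lay close to each other, and those of 1 library did not. In none of the 4 libraries did 2 start positions of the same gene and strand lie within 100 nt. A start position in each condition was present in 83 genes, and the nearest control and siTRMT6 positions were within 200 nt in 81 of them and up to 532 nt apart in the other 2, YY1AP1 and PDXDC1, named after their values were seen. The 81 pairs within 200 nt had a median distance of 12 nt (range 1 to 100), and 36 were within 10 nt. Unscaled reads within a pair were close. With each condition scaled to its summed listed reads, the median log2 ratio of siTRMT6 over control was 0.00. The quartiles were -0.19 and 0.19. The summed reads of the conditions were nearly equal, so this scaling did not adjust for the unequal totals of single libraries. The siTRMT6 position had more reads in 26 pairs, the control position in 34, and 21 were equal. In SPIRE1, 6 and 4 reads of both siTRMT6 libraries stand against 5 of control 1 alone. It was the 1 pair that reached 2-fold when scaled by condition. Since both positions had to pass the authors' filter to be listed, ratios near 1 are favoured. CENPB, a centromere protein gene, had 27 reads in control 2 and 26 in siTRMT6 1, 32 nt apart. SHC1, an adaptor of receptor signalling, had 27 in control 2 and 21 in siTRMT6 1, 11 nt apart. SFPQ, a paraspeckle and splicing protein gene, had 23 in control 2 and 24 in siTRMT6 1, 80 nt apart. TCF7L2, a Wnt pathway transcription factor gene with 3 start positions, had 6 reads at each. The control 2 position and 1 siTRMT6 1 position lay 5 nt apart, and another siTRMT6 1 position lay far upstream of them, at base 98 of another transcript.

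**Figure D4:**
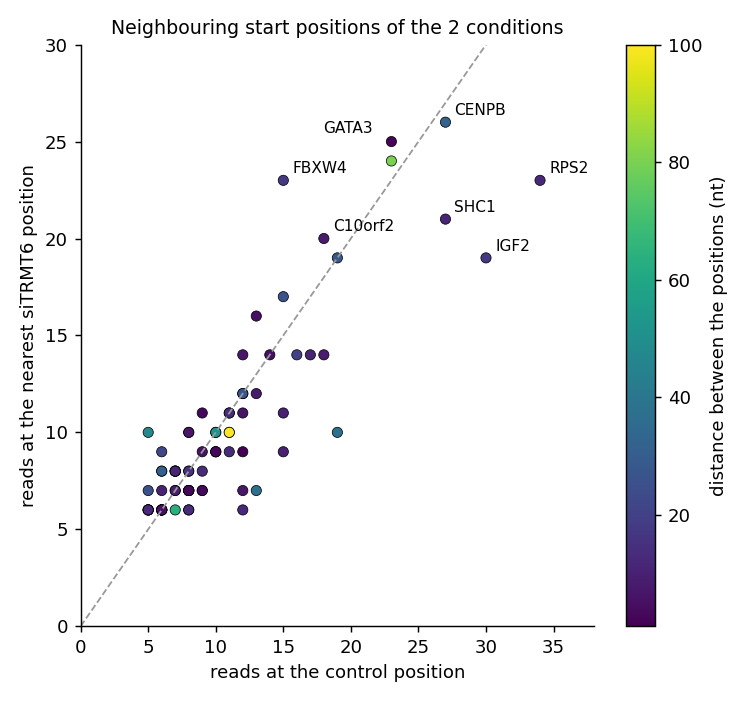
Reads at the siTRMT6 position (vertical axis) against reads at the nearest control position (horizontal axis) for the 81 pairs of start positions, 1 point per pair (some overlap), with a dashed line of equal reads and colour for the distance in nt. Reads of FBXW4, SPIRE1 and TWF2 are summed over both siTRMT6 libraries. The points lie along the line, with 26 pairs above it, 34 below and 21 on it.

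Joining positions of a gene that lay within 200 nt brought reads of different libraries together in a minority of regions. It gave 577 start regions, of which 158 had reads in 2 or more libraries: 133 in 2, 25 in 3 and none in 4. Both conditions were present in 111 (19.2%, Wilson interval 16.2 to 22.7), against 1250 of 7450 other regions (16.8%). This share rested on control 2 and siTRMT6 1, and fell to 4.77% without control 2 and to 9.48% without siTRMT6 1. The log2 ratio here was likewise scaled by condition and not by library. Within the 111, the median was 0.00 (quartiles -0.22 and 0.30), and in the other regions with both conditions it was -0.17 (-0.47 and 0.03). A 2-fold difference was reached by 5 of the 111 (4.50%), all higher in siTRMT6, against 6.25% of all regions with both conditions. The 5 were EED, LONP1, GRIA4, TNPO3 and SPIRE1. Each sums reads of both siTRMT6 libraries against those of 1 control library. Reads of the single libraries were close, as in LONP1 with 7 in control 1, 8 in siTRMT6 1 and 7 in siTRMT6 2. Among the other regions 12 were 2-fold higher and 68 lower. Whether these distributions differ was not tested over libraries.

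Of the 25 start regions with 3 libraries, 23 (92%) held both siTRMT6 libraries and 1 control, and 2 held both controls, namely GNA13 and MARK3. Among the other regions with 3 libraries, 131 of 229 (57.2%) held both siTRMT6 libraries. GNA13, a G protein alpha subunit gene, and MARK3, a microtubule affinity-regulating kinase gene, each had 7, 7, 8 and 0 reads in control 1, control 2, siTRMT6 1 and siTRMT6 2. In the same order, SFPQ had 0, 23, 24 and 15 reads and HNRNPA0, an hnRNP gene, had 0, 19, 19 and 10. MFSD11 had 0, 17, 14 and 7, FAM195B 0, 15, 15 and 9, and BAG6, a chaperone of tail-anchored proteins, 0, 13, 12 and 7. In these genes the unscaled reads of control 2 and siTRMT6 1 were level, and those of siTRMT6 2 were lower. The listed totals of these libraries were 46007, 40771 and 13812 reads. DEDD, a death effector domain gene, had 0, 13, 15 and 7, LYSMD1 0, 14, 12 and 8, and GTPBP6 0, 12, 14 and 7. TGFB1, the secreted growth factor gene, had 0, 11, 11 and 8, GRIA4, a glutamate receptor subunit gene, 0, 9, 11 and 7, SAMD4B 0, 9, 10 and 6, and GMPR2, a purine salvage enzyme gene, 0, 9, 8 and 6. The same pattern held at lower reads in TWF2, with 0, 6, 5 and 4 reads.

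In other regions control 1 was the control present. C10orf2, the mitochondrial helicase gene also called TWNK, had 18, 0, 20 and 9 reads, SCAMP3 12, 0, 13 and 9, and SPPL3, an intramembrane protease gene, 10, 0, 10 and 6. LONP1, the mitochondrial Lon protease gene, had 7, 0, 8 and 7, TNPO3, a nuclear import receptor for SR proteins, 7, 0, 8 and 6, and SPIRE1 5, 0, 6 and 4. Here too the unscaled reads of the control were level with those of siTRMT6 1, whereas the listed totals were 8655 and 40771. EED, a Polycomb repressive complex subunit gene, had the largest ratio of the regions with 3 libraries, with 0, 6, 8 and 6 reads and a log2 ratio of summed reads of 1.22.

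**Figure D5:**
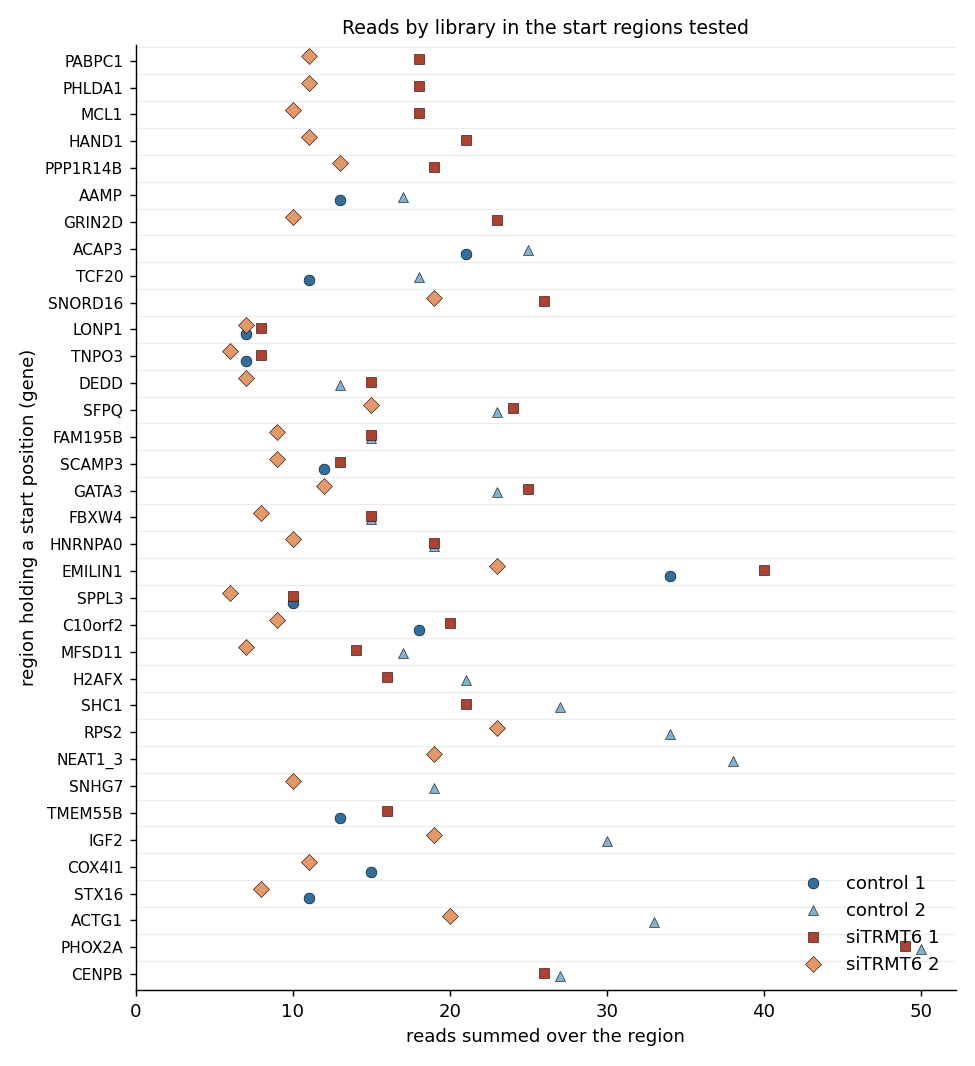
Reads summed over the region (horizontal axis) in each library (symbols) for the 35 start regions tested with edgeR, 1 row per region in order of p; a library with no reads has no symbol. The first 10 rows hold 1 condition each, as in ACAP3 with 21 and 25 control reads, and in the rows below both conditions are present.

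Among regions with reads in 1 condition only, 26 held both siTRMT6 libraries and no control read, and 21 held both controls and no siTRMT6 read, which is 4.51% and 3.64% of the start regions, against 3.66% and 1.86% of all regions. SNORD16 had 26 and 19 reads in siTRMT6, which is at least 15.0-fold higher than the floor of 3 control counts, and GRIN2D, a glutamate receptor subunit gene, had 23 and 10. HAND1 had 21 and 11, PPP1R14B, a phosphatase inhibitor gene, 19 and 13, and PABPC1, the poly(A)-binding protein, and PHLDA1 each 18 and 11. MCL1, an anti-apoptotic BCL2 family gene, had 18 and 10. On the control side, ACAP3, a GTPase-activating protein gene, had 21 and 25 reads and was at least 15.3-fold lower in siTRMT6, AAMP had 13 and 17, and TCF20, a transcriptional coregulator gene, 11 and 18. In edgeR's quasi-likelihood test 35 start regions were tested and 0 called, as were 0 of all 486 regions tested (0.0%). These 10 had an unadjusted p below 0.05, with edgeR adjusted p from 0.0564 to 0.0604, where 125 of the 486 (25.7%) had one. Each of the 10 passed the filter through the condition in which it was read, so these p-values are given as a description. Scaled to library totals the smallest edgeR adjusted p of a start region was 0.398, and with the replicate block 0 start regions had an unadjusted p below 0.05. DESeq2 called 0 start regions too, and 2 had an unadjusted p below 0.05.

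By gene function, start positions were spread over many groups. Of the protein-coding genes with any listed position, 500 of 4405 (11.4%) had a start position. Splicing factor and hnRNP genes, which shape pre-mRNA processing, had one in 10 of 48 (20.8%, Wilson interval 11.7 to 34.3), with 12 positions of which 11 were on minus-strand transcripts. The reads were 21 at HNRNPU in siTRMT6 2, 20 at SRSF1 in siTRMT6 1, 19 at each of 2 bases of HNRNPA0 in control 2 and siTRMT6 1, and 15 at HNRNPUL2 in siTRMT6 2. In all, 9 of the 12 were siTRMT6 positions, with 120 reads against 31 in control, where 364 of all 690 start positions (52.8%) were, with 3467 reads against 2943. Cytosolic ribosomal protein genes had one in 10 of 57 (17.5%, 9.82 to 29.4), with 86 reads in control and 72 in siTRMT6. After RPS2, RPL30 showed 12 control 2 and 12 siTRMT6 1 reads at bases 27 nt apart, RPL24 showed 8 control 1 and 10 siTRMT6 1 reads at bases 5 nt apart, and RPL31 had 11 in siTRMT6 1. The interval for ribosomal protein genes includes the 11.4% over all protein-coding genes. That for splicing factor and hnRNP genes begins just above it, at 11.7%. No list was tested against the others.

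The share was lower or similar in most other groups. Translation factor genes had a start position in 4 of 37 (10.8%), with PABPC1 leading and EIF4G2, an initiation factor relative, at 12 reads in control 1. Mitochondrial ribosomal protein genes had one in 2 of 33 (6.06%), MRPL55 and MRPS15, each with 8 siTRMT6 reads. Solute carrier genes had one in 7 of 61 (11.5%), led by SLC3A2, the amino acid transporter heavy chain, with 8 reads. Ubiquitin and proteasome genes had one in 5 of 60 (8.33%), led by USP19, a deubiquitinase, with 18 reads in control 2 and UBE2M, a NEDD8-conjugating enzyme, with 14 in siTRMT6 2. Chromatin genes had one in 4 of 48 (8.33%), led by SETD1B, a histone H3 methyltransferase, with 11 reads in control 2. Among the ZNF genes it was 2 of 92 (2.17%, 0.598 to 7.58), ZNF513 and ZNF746, the lowest share of the lists with a start position. None of the 8 genes of m1A enzymes and readers with a listed position had one near a start, nor had any of 6 mesenchymal markers. Of the 12 noradrenergic markers of neuroblastoma with a listed position, PHOX2A and GATA3 had one. The 4 markers of other cell types had no listed position at all.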

How the data were processed

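Reads at single-base m1A sites were analysed in 2 control and 2 siTRMT6 libraries. Per the file headers, the deposited table gives each site its counts per library together with a log2 fold change and its raw and adjusted p-value. The deposited counts are whole numbers, and the authors' log2 fold change and p-value were used only where named. The column names do not say m1A or input and were taken as m1A, while the 4 input samples are not used here. STAR and FastQC 0.11.3 with the build hg38 were used, per the submitters' processing notes. How sites were called, counted, tested and filtered is not given in the sources used here.

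Lines were reduced to 1 record per site. Of the 4945 gene symbols, 4624 (93.5%) matched RefSeq. Counts were tested with the quasi-likelihood test of edgeR 4.0.16 (R 4.3.3), after filterByExpr and TMM scaling, with Benjamini-Hochberg adjustment at 0.05, and DESeq2 1.42.0 was the alternative. Of these steps, the edgeR test of regions was tried on simulated counts with a set spread and more reads than here. This does not show how the test performs on these data. Shares per library were compared by exact permutation in Python 3.11.15. Intervals are 95% Wilson intervals and, like the floor of 3 counts, cover counting error only.

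Positions and lists were chosen with earlier results of these data known. Named were start positions called by edgeR or read in 2 libraries, the 10 with most reads per condition, regions with 3 libraries, genes with 3 start positions, positions at base 5 or less with 20 or more reads, and up to 4 members per list. Genes with reads in both libraries of 1 condition and an unadjusted p below 0.05, and those whose sequence is shown, were named after their values were seen. The alternatives were other limits of 50 and 200 nt, a minimum of 10 reads, joining within 50 nt, leaving out each library, no filter, DESeq2 and the replicate block. The strand comparison and its alternatives were chosen after the values were seen.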

Additional observations from a re-analysis of the deposited data

How the results depend on the processing

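The reads are few and the sequencing depth is unknown, so most single bases could not be compared between libraries. The difference in the share of listed positions was 0.176 percentage points and turned to -0.267 with a limit of 50 nt and -0.667 with 200 nt, and ran from -0.933 to 1.28 with 1 library left out. The difference in the share of reads ran from -0.250 to 1.40 with 1 library left out. The 5' UTR difference was -3.48 points at 10 or more reads, 6.85 with a limit of 50 nt and 4.38 with 200 nt, and ran from 1.40 to 4.37 with 1 library left out. The share of positions with reads in 1 library ran from 97.9% to 98.6%, and that of start regions with both conditions from 4.77% to 18.7%, with 1 library left out. The latter was 22.7% at 10 or more reads and 15.7% when joined within 50 nt. The share of sites that are A was 8.86% with sites counted from 1 and 100% on the forward strand. The minus-strand difference kept its direction, from 18.8 points (limit of 200 nt) to 60.8 (largest transcript position), and from 40.4 to 43.8 with 1 library left out. edgeR called 0 start positions without the filter, with the replicate block and with any library left out (0 to 0), and DESeq2 also called 0. Start regions called stayed at 0 in every alternative run. Scaled to the library totals, 14 of the 34 positions were called in place of 22. Whether same-numbered libraries belong together is not given. Their deviations from the condition means correlated at 0.0461, and those of libraries with different numbers at -0.0461. With 2 libraries per condition these values mirror each other. Only 1.41% of listed positions had reads in 2 or more libraries, so the correlation cannot show whether the numbers mark pairs. With the replicate block the difference in reads was 0.574, with pairs at -0.592 and 1.74 (exact sign-flip p = 1), and the FBXW4 position had an adjusted p of 0.780 in edgeR. The causes of these shifts were not tested.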

Other observations

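Non-coding RNA held 66 of the start positions: 39 in long or unclassified non-coding RNA, 9 in small nucleolar RNA, 9 in pseudogenes, 5 in copies of snRNA, 7SK or 5S RNA and 4 in microRNA hairpins. A short RNA falls under the limit of 100 nt wherever it is read, so these bases need not lie near a start. Several small RNAs sit inside ribosomal protein genes by RefSeq, which host them in introns. SNORA10 lies within RPS2 and had 33 reads in control 1, SNORD16 lies within RPL4 and had 26 reads in siTRMT6 1 and 19 in siTRMT6 2, 5 nt apart, and SNORA7A lies within RPL32 and had 13 and 10 in the same libraries, 8 nt apart. MIR6728, a microRNA hairpin within ENO1, had 12 reads in siTRMT6 2. Reads of a small RNA and of its host transcript cannot be told apart here. FP671120.2 had the most reads of this group, 38 in siTRMT6 2. SNHG7, a host gene of small nucleolar RNAs, had 19 reads in control 2 and 10 in siTRMT6 2, 37 nt apart. A 5S RNA pseudogene, RNA5SP283, had 15 reads in control 2 and 17 in siTRMT6 1, 26 nt apart, and as a repeated sequence it may share reads with other copies.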
